A study of Mus musculus with 6 samples.

Results

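The enzymes that attach glutathione, glucuronic acid or sulfate to other molecules were followed as one group of genes in RNA from whole terminal ileum, where the small intestine ends, of 6 mice. All rows of the deposited expression table whose symbol begins with Gst and a class letter (a, k, m, o, p, t or z) followed by a digit, with Mgst1 to Mgst3, with Ugt1 to Ugt3 and the letter a or b, or with Sult and a digit were taken, which gave 62 genes of 23402. They comprise 24 glutathione transferases (GSTs), 20 UDP-glucuronosyltransferases (UGTs) and 18 sulfotransferases (SULTs). The rule used symbols only and no measured value, but it was set with earlier results of these data known. All 6 animals were 6 weeks old, carried floxed alleles of Il17ra and were sampled on day 6 of drinking dextran sodium sulfate (DSS), a polysaccharide that injures the gut epithelium. The 3 Cre-positive mice had the genotype Il17rafl/fl;Atoh1-cre+ (titled KO), and the 3 Cre-negative mice, Il17rafl/fl;Atoh1-cre- (titled WT), were their littermates. Atoh1 encodes the transcription factor of the secretory lineage, so that Cre is driven in Paneth, goblet and enteroendocrine cells and their progenitors, while the whole tissue also holds enterocytes, immune cells and muscle in which the allele is not targeted. The comparison asks which transcripts differ when the receptor for interleukin-17 is deleted in that lineage. Animals without DSS were not analysed here, and DSS exposure is shared by both groups.

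GSTs, UGTs and SULTs carry out the conjugation step of detoxification. GSTs join the tripeptide glutathione to electrophiles such as lipid peroxidation products, UGTs of the endoplasmic reticulum transfer glucuronic acid from UDP-glucuronate to bilirubin, phenols, steroids and bile acids, and cytosolic SULTs transfer sulfate from the donor PAPS to phenols, catecholamines and sterols. In the intestine these enzymes sit mainly in epithelial cells, where they act on dietary compounds, drugs, bile constituents and hormones before the conjugates are exported to the lumen or the blood. Several are known targets of the stress-responsive factor NRF2 and of nuclear receptors.

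Values are FPKM, fragments relative to transcript length and library depth, and can therefore be set side by side between genes. Where values are joined by "against", Cre-negative libraries 1, 2 and 3 come first, then Cre-positive libraries 1, 2 and 3. The depth of a library was estimated at 8200000 to 9600000 fragments, which may be a scaled depth. Each library held 16317 to 16547 genes above 0. At that depth 1 FPKM of a transcript of 1500 bases is about 13.7 fragments. Il17ra was not lower in the Cre-positive libraries: it stood at 6.04, 5.91 and 6.53 FPKM in the 3 Cre-negative libraries and 7.93, 8.36 and 6.07 FPKM in the 3 Cre-positive ones, so that its level does not check the genotype labels. Defining transcripts of the terminal ileum were low. Fabp6, the ileal bile acid binding protein, ranged from 0.316 to 9.79 FPKM and Slc10a2, the ileal bile acid transporter, from 0.067 to 1.94 FPKM, whereas Gata4, a factor of the more proximal small intestine, was at 37.1 to 49.3 FPKM. Of 4 large intestine markers, which summed to at most 1.14 FPKM in a library, Hoxd13 and Hoxb13 were listed at 0 in all 6 libraries. Alb, a hepatocyte marker, reached at most 0.115 FPKM. The list of 6 hepatocyte markers nevertheless summed to 205 to 345 FPKM, and its members Cps1, Ttr and Cyp2e1 had a mean of at least 1 FPKM. The tissue is called by its label below. In whole tissue, fewer cells of a type and less RNA per cell cannot be told apart.

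Many of these genes are close copies, which bears on how their values can be read. The 8 Ugt1a genes in the table lie on chromosome 1 (GRCm38, plus strand), and each joins a first exon of its own to the same downstream exons. Exons of 132, 88 and 220 bases, the first of them at chr1:88215044-88215175, are common to all 8 in the GENCODE M21 annotation. The letters around that junction are shown because a fragment that lies wholly in the common exons cannot be given to 1 gene by its sequence. The last 20 bases of each gene's own exon are in lower case and the first 20 bases of the common exon in capitals:
Ugt1a10: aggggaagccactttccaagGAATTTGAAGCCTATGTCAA
Ugt1a9: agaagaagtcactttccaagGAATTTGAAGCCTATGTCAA
Ugt1a7c: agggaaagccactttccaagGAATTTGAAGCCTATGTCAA
Ugt1a6b: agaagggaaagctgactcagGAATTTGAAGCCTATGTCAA
Ugt1a6a: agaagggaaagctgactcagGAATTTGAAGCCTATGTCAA
Ugt1a5: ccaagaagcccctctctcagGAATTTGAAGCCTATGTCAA
Ugt1a2: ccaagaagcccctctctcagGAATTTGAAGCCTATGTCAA
Ugt1a1: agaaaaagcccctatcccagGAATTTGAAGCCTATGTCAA
Ugt1a6a and Ugt1a6b share the last 20 bases of their own exon, as do Ugt1a2 and Ugt1a5. Between 52.1% and 79.8% of the 50-base windows of the 7 Ugt1a transcripts above the filter described below also occur in another gene.

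Tandem copies among the glutathione transferases show the same limit. The coding sequences of Gstp1 and Gstp2 differ at 12 of 630 positions (98.1% identity), and the first 60 coding bases hold 6 of these differences, given in capitals:
Gstp1: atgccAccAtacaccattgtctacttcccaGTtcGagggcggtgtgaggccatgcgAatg
Gstp2: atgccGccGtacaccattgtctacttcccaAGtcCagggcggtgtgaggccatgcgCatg
Ugt1a6a and Ugt1a6b differ at 26 of 1593 coding positions (98.4% identity), and coding bases 296 to 355 are the 60-base stretch with the most differences, 9:
Ugt1a6a: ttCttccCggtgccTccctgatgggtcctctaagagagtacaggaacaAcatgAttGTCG
Ugt1a6b: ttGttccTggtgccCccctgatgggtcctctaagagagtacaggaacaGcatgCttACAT
For Gsta1 and Gsta2, with 97.6% coding identity, the corresponding stretch from 449 to 508 holds 5 differences:
Gsta1: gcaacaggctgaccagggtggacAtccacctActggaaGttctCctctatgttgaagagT
Gsta2: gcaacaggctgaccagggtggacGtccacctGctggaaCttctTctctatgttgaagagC
Of the windows of Gsta1, 90.5% also occur in another gene and 75.7% occur in the predicted gene Gm3776, which had its own row at 0.581 to 4.87 FPKM. By contrast, no 50-base window of Gsta4, Gstm5, Gstt1, Gsto1, Gstk1, Mgst1, Mgst3, Sult1d1, Sult1b1 or Sult2b1 was found in any other gene. The sources used here do not say how shared fragments were divided, so values of the near-identical genes are uncertain.

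**Figure D1:**
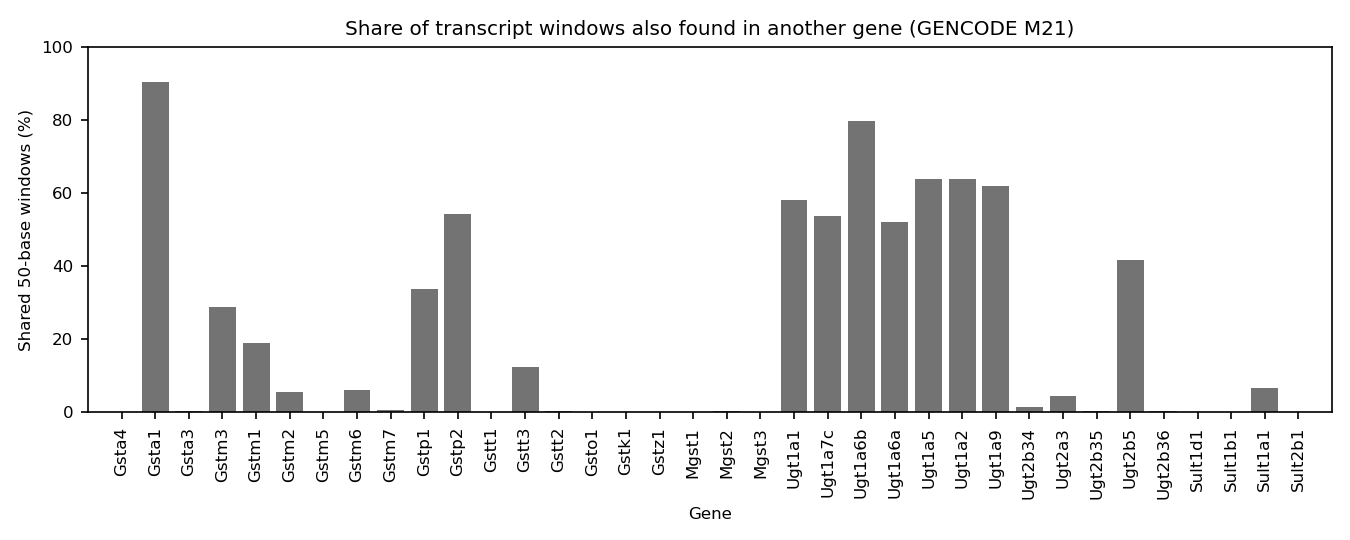
Share of the 50-base windows of each tested gene's GENCODE M21 transcripts that also occur in transcripts of another gene, in percent, ordered by class. The bar of Gsta1 reaches 90.5% and that of Ugt1a6b 79.8%, while Gstt1, Gsto1, Gstk1 and the sulfotransferases Sult1d1, Sult1b1 and Sult2b1 have none.

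Of the 62 genes, 36 had a mean of at least 1 FPKM over the 6 libraries and were tested. A further 9 lay below that filter (Gsta2, Gstt4, Gsto2, Ugt1a10, Ugt2b38, Ugt2b1, Sult1c2, Sult4a1 and Sult5a1), with a highest single value of 1.08 FPKM. The other 17 were listed at 0 in all 6 libraries. These were Gstm4, Ugt2b37, Ugt2a1, Ugt2a2, Ugt3a1, Ugt3a2, Sult1e1, Sult1c1, Sult3a1, Sult6b1 and all 7 Sult2a genes, which encode the hydroxysteroid sulfotransferases known from liver. None of 15 housekeeping genes looked at was listed at 0 in a library, but 1 of 76 ribosomal protein rows, and 5640 rows of the table in all, were at 0 in every library. A 0 is therefore given as listed and not as absence. By class, the filter was passed by 20 of 24 GSTs, 12 of 20 UGTs and 4 of 18 SULTs. All 3 microsomal GSTs and 7 of 8 Ugt1a genes passed, but 1 of 8 Sult2 genes and neither Ugt3 gene.

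Most of the conjugating transcripts came from a few genes. Gsto1, Mgst1, Mgst2, Mgst3, Gstp1, Ugt2b34 and Sult1d1 each had a mean above 100 FPKM. Summed over all members of a family, GSTs reached 1845, 1580.0 and 1493 FPKM in the Cre-negative libraries and 1381, 1557 and 1573 FPKM in the Cre-positive ones. UGTs summed to 512, 431 and 414 FPKM against 454, 437 and 463 FPKM. SULTs summed to 275, 282 and 348 FPKM against 344, 254 and 251 FPKM. The groups overlapped for each of the 3 families, with ratios of the Cre-positive to the Cre-negative mean of 0.917, 0.997 and 0.939. The whole table's summed FPKM had a ratio of 0.922, and the 62 genes made up 0.408% to 0.462% of it in each library.

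**Figure D2:**
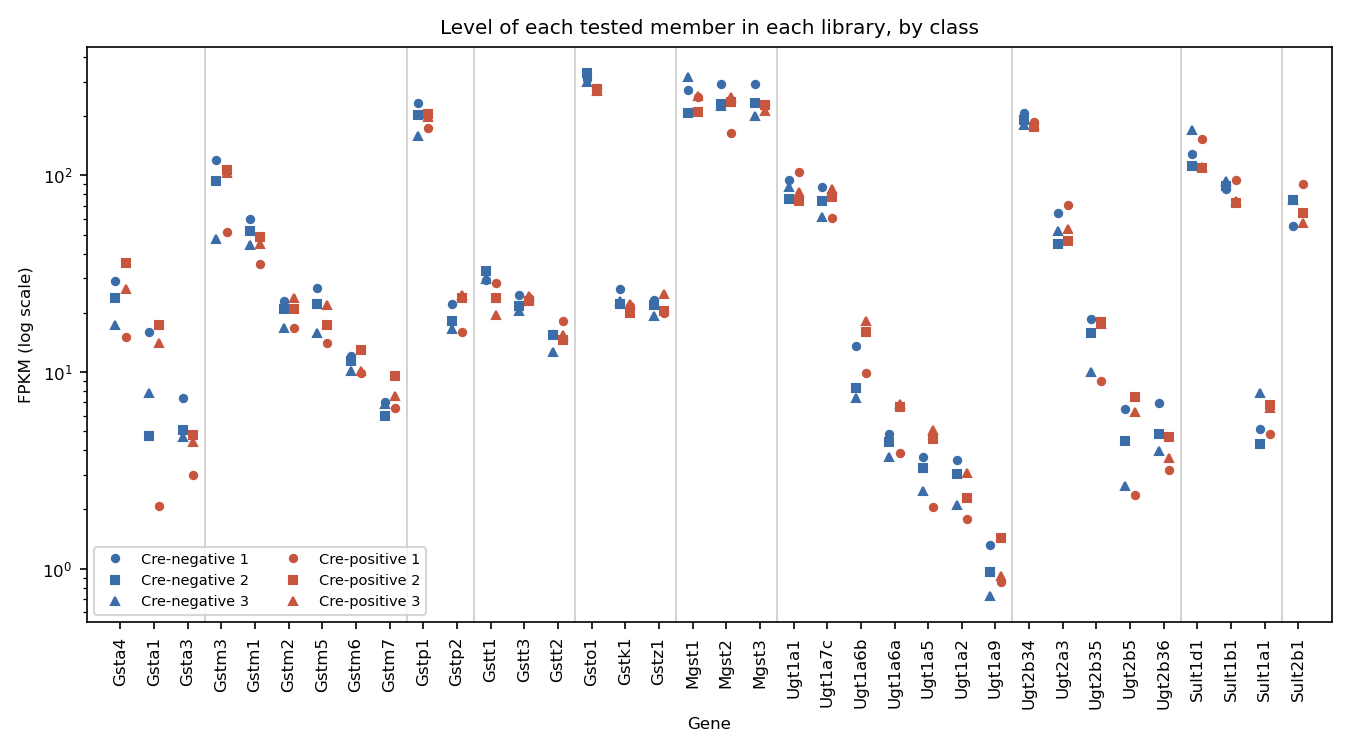
FPKM of the 36 tested genes in each library on a log scale, grouped by class, with circles, squares and triangles for replicates 1, 2 and 3 of the Cre-negative (blue) and Cre-positive (red) mice. Levels run from 0.724 FPKM for Ugt1a9 to 331 FPKM for Gsto1, and for most genes the points of both groups lie among each other.

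None of the 36 tested genes differed between the groups past an adjusted p of 0.05 (limma, Benjamini-Hochberg over 12695 genes), nor did any gene of the table, a background of 0%. The adjusted p was 0.998 for all 36. At an unadjusted p under 0.05, 1 of the 36 was lower in the Cre-positive group (Gstt1), where 136 of all genes (1.07%) were, and 0 were higher, where 323 of all genes (2.54%) were. All 3 Cre-positive libraries lay below all 3 Cre-negative ones for 3 of 36 genes (Gstt1, Gsto1 and Gstk1), beside 2.6% of all genes. In the opposite direction there were 0 of 36, beside 5.77% of all genes. After median-of-ratios scaling 5 genes had all Cre-positive libraries below all Cre-negative ones (Ugt2b34, Gsta3, Gstm1, Gsto1 and Gstk1, beside 4.10% of all genes), and after rescaling to an equal sum 0 did (beside 0.544%). The log2 fold changes, taken as Cre-positive minus Cre-negative on the log2(FPKM + 1) scale, were above 0 for 18 and below 0 for 18 genes, with a median of -0.0035 and a median SE of 0.18. Over all tested genes the median was 0.03, with 7414 above 0 and 5281 below. That split moved with the scaling between libraries: after median-of-ratios scaling 12 of 36 were above 0, and after rescaling to an equal sum 24 of 36, where the median of all genes itself moved to 0.13.

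**Figure D3:**
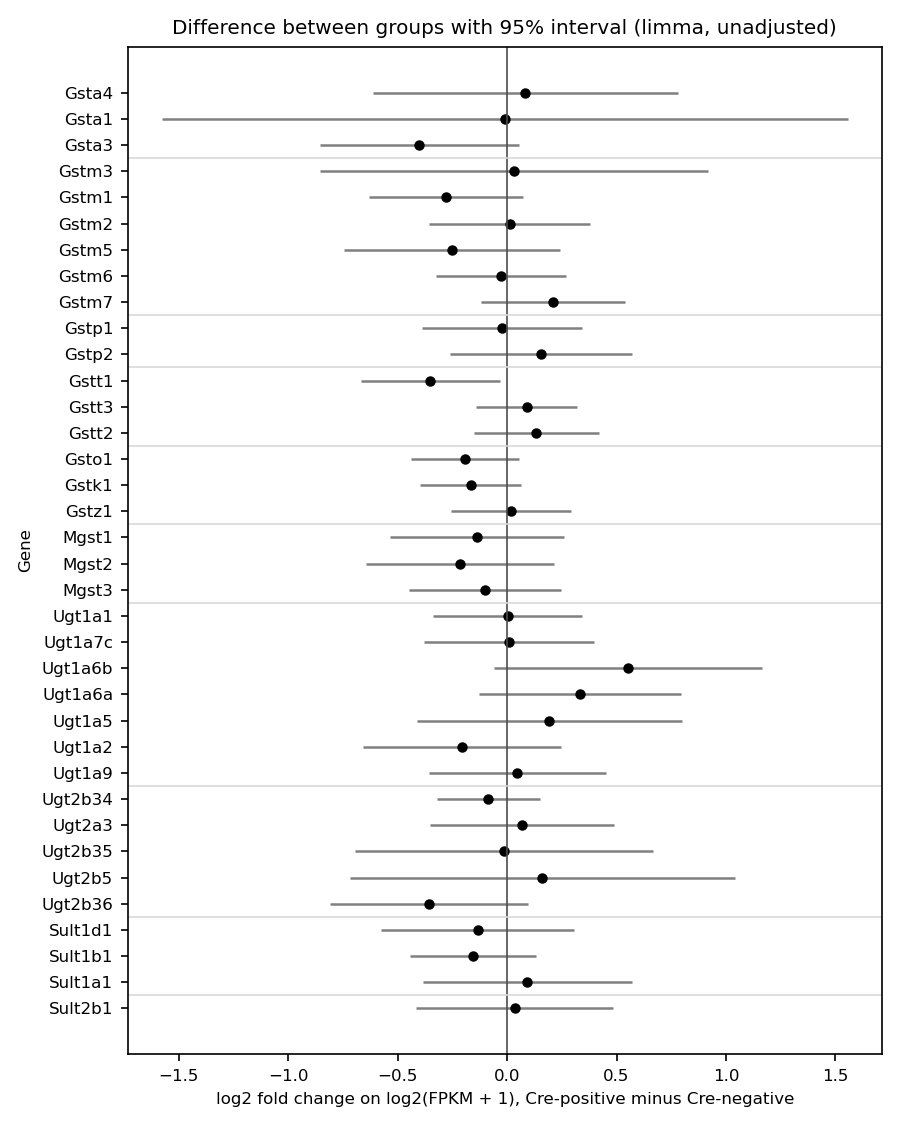
Log2 fold change of each tested gene on the log2(FPKM + 1) scale, Cre-positive minus Cre-negative, with its unadjusted 95% interval from limma. The interval of Gstt1 (-0.67 to -0.03) excludes 0 and those of the other 35 genes include it, with the widest for Gsta1 (-1.58 to 1.56).

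Among the alpha class, which handles products of lipid peroxidation, Gsta4 had the highest level. This enzyme conjugates hydroxynonenal. It was measured at 28.9, 23.8 and 17.4 FPKM in the Cre-negative and 15.1, 35.8 and 26.5 FPKM in the Cre-positive libraries. The lowest and the highest value both belonged to the Cre-positive group. Gsta1 was the most variable of all 36 genes, at 15.99, 4.75 and 7.81 FPKM against 2.07, 17.3 and 14.00 FPKM. Its highest library was 8.35 times its lowest, and the groups overlapped over nearly their whole range, with a log2 fold change of -0.01 (SE 0.68, adjusted p = 0.998 by limma). Gm3776, which shares most of its sequence, showed 3.11, 4.07 and 1.05 FPKM against 0.581, 4.87 and 3.27 FPKM. Gsta3, known in mice for conjugating the epoxide of aflatoxin, stood at 7.36, 5.07 and 4.65 FPKM against 3.001, 4.77 and 4.39 FPKM. Only the lowest Cre-negative value, 4.65 FPKM, lay within the Cre-positive range, and the log2 fold change was -0.40 (SE 0.20, adjusted p = 0.998 by limma). Levels ran in the order Gsta4, Gsta1, Gsta3, but the ranges of neighbours overlapped.

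The mu class lies in a cluster on chromosome 3, and 6 of its 7 genes were tested. Gstm3 was at 119, 93.5 and 47.3 FPKM in the Cre-negative libraries and 51.3, 107 and 103 FPKM in the Cre-positive ones. In each group a single library, Cre-negative 3 and Cre-positive 1, held about the same low value while the others were near 100 FPKM. The difference was 0.03 on the log2 scale (SE 0.38). Gstm1, an enzyme of broad electrophile specificity, was at 60.05, 52.4 and 44.5 FPKM against 35.6, 48.7 and 44.6 FPKM. Its log2 fold change was -0.28 (SE 0.15, adjusted p = 0.998 by limma), with the 2 highest values in Cre-negative libraries and the lowest in a Cre-positive one. Gstm2 was at 22.97, 20.97 and 16.7 FPKM against 16.7, 20.9 and 23.7 FPKM, without a visible shift. Gstm7 reached 6.999, 5.95 and 6.86 FPKM against 6.55, 9.50 and 7.56 FPKM. Its highest value was in Cre-positive 2 and its lowest in Cre-negative 2, with a log2 fold change of 0.21 (SE 0.14). The remaining 2, Gstm5 and Gstm6, ranged from 14.0 to 26.7 FPKM and from 9.86 to 12.9 FPKM. Levels of Gstm1 and Gstm2 were separated in all 6 libraries, as were those of Gstm5 and Gstm6. The ratio of Gstm3 to Gstm1 within a library varied from 1.06 to 2.32.

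Gstp1 encodes the pi class enzyme and was at 233, 203 and 159 FPKM against 175, 206 and 199 FPKM. The Cre-positive values all lay inside the Cre-negative range. Its copy Gstp2 stood at 22.1, 18.1 and 16.6 FPKM against 15.95, 23.8 and 24.6 FPKM, with a log2 fold change of 0.16 (SE 0.18). Its Cre-positive libraries 2 and 3 exceeded all Cre-negative ones, and Cre-positive 1 was the lowest of the 6. Gstp1 was 8.09 to 11.2 times Gstp2 in every library, a ratio that depends on how fragments common to both were assigned.

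In the theta class, Gstt1 was the gene with the smallest unadjusted p of the 36. It lies at chr10:75783813-75798584 on the minus strand and conjugates small halogenated compounds. Its level was 29.4, 32.6 and 29.6 FPKM in the Cre-negative and 28.4, 23.9 and 19.6 FPKM in the Cre-positive libraries, or 30.5 ± 1.79 against 24.0 ± 4.40 FPKM (SD, n = 3 per group). The groups did not overlap, although the gap between 29.4 and 28.4 FPKM was small. The log2 fold change was -0.35 (SE 0.14, 95% interval -0.67 to -0.03, unadjusted p = 0.0348 and adjusted p = 0.998 by limma). After median-of-ratios scaling, or after rescaling to an equal sum, its groups overlapped, and without Cre-positive 3 the log2 fold change was -0.22. The neighbouring genes went without such a difference: Gstt3 was at 24.7, 21.8 and 20.4 FPKM against 23.8, 23.01 and 24.3 FPKM and Gstt2 at 15.6, 15.4 and 12.6 FPKM against 18.1, 14.6 and 15.3 FPKM. Their log2 fold changes were 0.09 (SE 0.10) and 0.13 (SE 0.12). The difference between the 3 genes was not tested.

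Gsto1 had the highest mean of all 62 genes. The omega enzyme, at chr19:47854970-47864790 on the plus strand, reduces dehydroascorbate and methylated arsenic compounds. Its values were 311, 331 and 298 FPKM in the Cre-negative and 279, 274 and 269 FPKM in the Cre-positive libraries, that is 313 ± 16.9 against 274 ± 5.12 FPKM (SD, n = 3 per group). All Cre-positive values lay below all Cre-negative ones, with a log2 fold change of -0.19 (SE 0.11, adjusted p = 0.998 by limma). Gstk1, the kappa enzyme of mitochondria and peroxisomes (chr6:42245935-42250447, plus strand), was at 26.4, 22.3 and 23.1 FPKM against 21.6, 19.9 and 22.1 FPKM. Its groups were separated by a gap of 22.3 to 22.1 FPKM, and the log2 fold change was -0.17 (SE 0.10). Gsto1 and Gstk1 stayed without overlap after median-of-ratios scaling and overlapped after rescaling to an equal sum. Under that rescaling Gstt3 alone of the 36 did not overlap, with its Cre-positive values higher. That order held for 16.1% of all genes under the same rescaling. Gstz1, the maleylacetoacetate isomerase of tyrosine breakdown, was at 23.2, 21.9 and 19.3 FPKM against 19.96, 20.5 and 24.8 FPKM and its groups overlapped.

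The 3 microsomal GSTs are small membrane proteins of the MAPEG family, and Mgst2 and Mgst3 also act in leukotriene and peroxide metabolism. Mgst1 was at 273, 208 and 316 FPKM against 252, 211 and 254 FPKM. Mgst2 was at 293, 230.2 and 226 FPKM against 165, 236 and 249 FPKM. Mgst3 was at 291, 235 and 200.4 FPKM against 227, 229 and 214 FPKM. The 3 genes could not be ordered, since their ranges overlapped and their order changed between libraries. All 3 log2 fold changes were below 0, at -0.14 (SE 0.17), -0.22 (SE 0.18) and -0.10 (SE 0.15), and the groups overlapped for each. Under rescaling to an equal sum and under quantile normalization 2 of 3 were below 0.

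**Figure D4:**
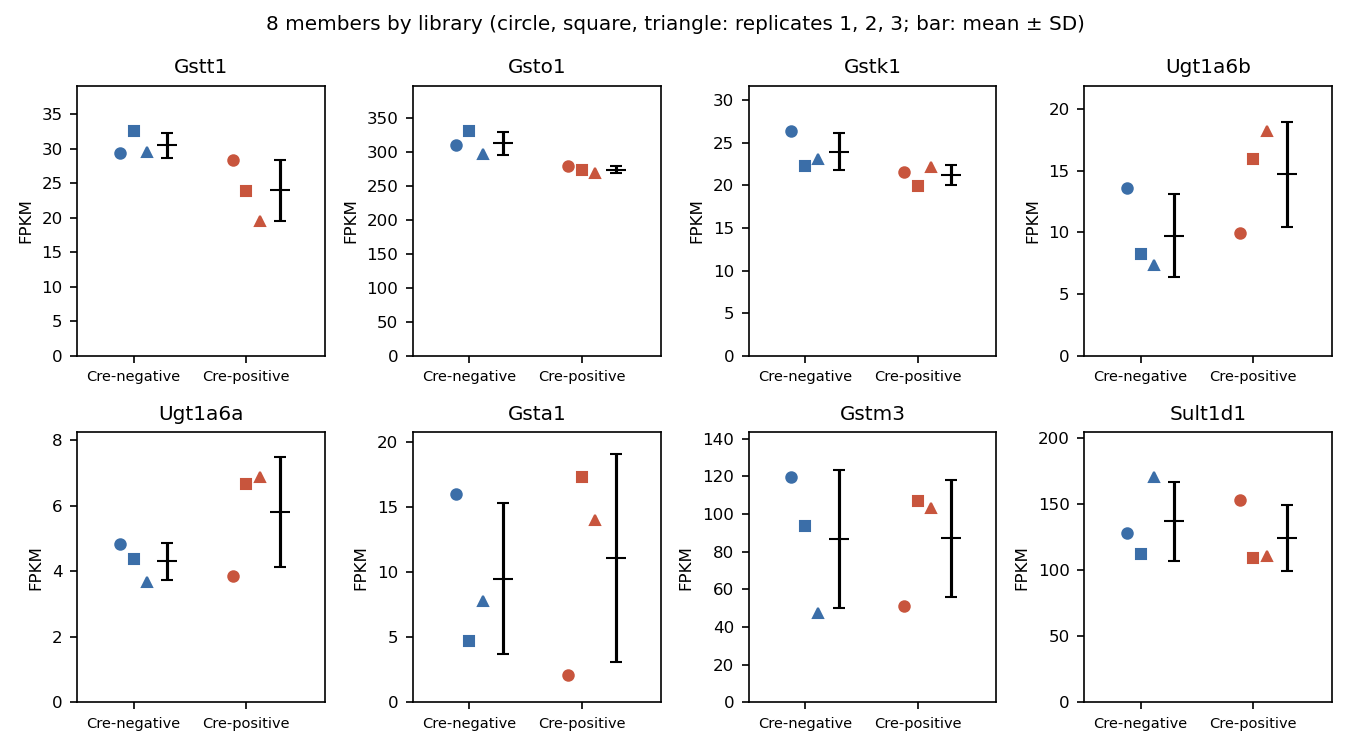
FPKM of 8 genes in each library, with the mean and SD of each group (n = 3) and replicates 1, 2 and 3 as circle, square and triangle. Gstt1, Gsto1 and Gstk1 are the genes whose groups do not overlap, Ugt1a6b and Ugt1a6a have the largest positive log2 fold changes, and Gsta1, Gstm3 and Sult1d1 differ more between libraries of one group than between groups.

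Of the Ugt1a genes, Ugt1a1, the enzyme of bilirubin, and Ugt1a7c, a phenol-conjugating form, supplied most of the signal. Ugt1a1 was at 95.3, 75.6 and 87.4 FPKM against 104, 74.5 and 82.1 FPKM, and Ugt1a7c at 87.2, 73.8 and 61.4 FPKM against 60.7, 78.1 and 84.8 FPKM. Their log2 fold changes were 0.003 (SE 0.15) and 0.01 (SE 0.17), and neither was the higher one in all libraries, with a ratio of 0.954 to 1.71. Ugt1a6b, one of a pair that conjugates planar phenols, was at 13.6, 8.27 and 7.38 FPKM in the Cre-negative and 9.94, 15.95 and 18.2 FPKM in the Cre-positive libraries. Its log2 fold change of 0.55 was the largest positive one of the 36 genes (SE 0.26, 95% interval -0.06 to 1.16, adjusted p = 0.998 by limma). The groups overlapped, since Cre-positive 1 lay below Cre-negative 1. Ugt1a6a followed at 4.83, 4.39 and 3.69 FPKM against 3.87, 6.67 and 6.87 FPKM, with a log2 fold change of 0.33 (SE 0.20). As shown above, the pair differs at few positions, so the 2 rows are not independent measurements. The other tested Ugt1a genes, Ugt1a5, Ugt1a2 and Ugt1a9, lay between 0.724 and 5.07 FPKM. Of the 7 log2 fold changes 6 were above 0, but 4 of 7 after median-of-ratios scaling.

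Ugt2b34 led the Ugt2 genes, which as a family act on steroids and bile acids. It was at 207, 192 and 180.2 FPKM against 186, 177 and 182 FPKM, the steadiest level of all 36 genes, with a highest library 1.17 times the lowest. Ugt2a3 was at 64.1, 44.96 and 52.3 FPKM against 70.4, 46.5 and 53.1 FPKM and Ugt2b35 at 18.6, 15.8 and 10.02 FPKM against 9.01, 17.9 and 17.6 FPKM. These 3 levels were separated from each other in all 6 libraries, while the groups overlapped for each gene. Ugt2b36 was at 6.97, 4.83 and 3.97 FPKM against 3.19, 4.65 and 3.65 FPKM. Cre-negative 1 held its highest value and Cre-positive 1 its lowest, and the log2 fold change was -0.36 (SE 0.20, adjusted p = 0.998 by limma). Ugt2b5, whose windows occur in another gene at 41.7%, ranged from 2.37 to 7.46 FPKM.

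Sulfotransferase transcripts came almost entirely from Sult1d1, Sult1b1 and Sult2b1. Sult1d1, a catecholamine sulfotransferase of mice, was at 128, 112 and 170.1 FPKM against 153, 109 and 111 FPKM. Sult1b1, which sulfates thyroid hormones and phenols, was at 85.01, 88.01 and 94.1 FPKM against 94.6, 72.03 and 74.5 FPKM. Both were highest in Cre-negative 3 and Cre-positive 1, the libraries in which Gstm3 was lowest, and their log2 fold changes were -0.13 (SE 0.19) and -0.16 (SE 0.12). Sult1a1, the phenol sulfotransferase, was at 5.14, 4.28 and 7.81 FPKM against 4.85, 6.80 and 6.58 FPKM. Sult1d1, Sult1b1 and Sult1a1 were separated in level in all 6 libraries. Sult2b1, which sulfates cholesterol, was the only Sult2 gene listed above 0, at 55.05, 75.2 and 74.9 FPKM against 90.7, 64.2 and 57.2 FPKM, with a log2 fold change of 0.03 (SE 0.19). Cre-positive 1 held its highest value, and the groups overlapped.

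A pattern that ran across classes, chosen after the values were seen, ran across both genotypes. Cre-negative 3 and Cre-positive 1 were the 2 lowest libraries for 17 of 36 genes (47.2%), beside 23.7% of all tested genes. These were Gsta4, 5 of 6 tested mu genes with Gstm3 in front, both pi genes, Gstz1, Mgst2, 5 Ugt1a genes, Ugt2b35 and Ugt2b5. The same 2 libraries were the highest for Sult1d1 and Sult1b1 (5.56%, beside 6.79% of all genes). The summed FPKM of 14 enterocyte markers was 10473, 14127 and 17487 in the Cre-negative and 17293, 10668 and 8762 in the Cre-positive libraries, highest in those 2, which were the 2 highest for 9 of the 14 markers but not, for example, for Fabp1, which was lowest in Cre-positive 1. The 7 markers of crypt stem and dividing cells summed to 811, 654 and 471 against 413, 678 and 734 FPKM, lowest in those 2. Olfm4, at 223 to 563 FPKM, made up most of that sum. The 2 libraries were the lowest for 5 of the 7 crypt markers but not for the stem cell genes Lgr5 and Ascl2. They were neither the 2 lowest nor the 2 highest for any of 8 Paneth or 7 tuft cell markers. The part of cell composition in the gene values was not tested.

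**Figure D5:**
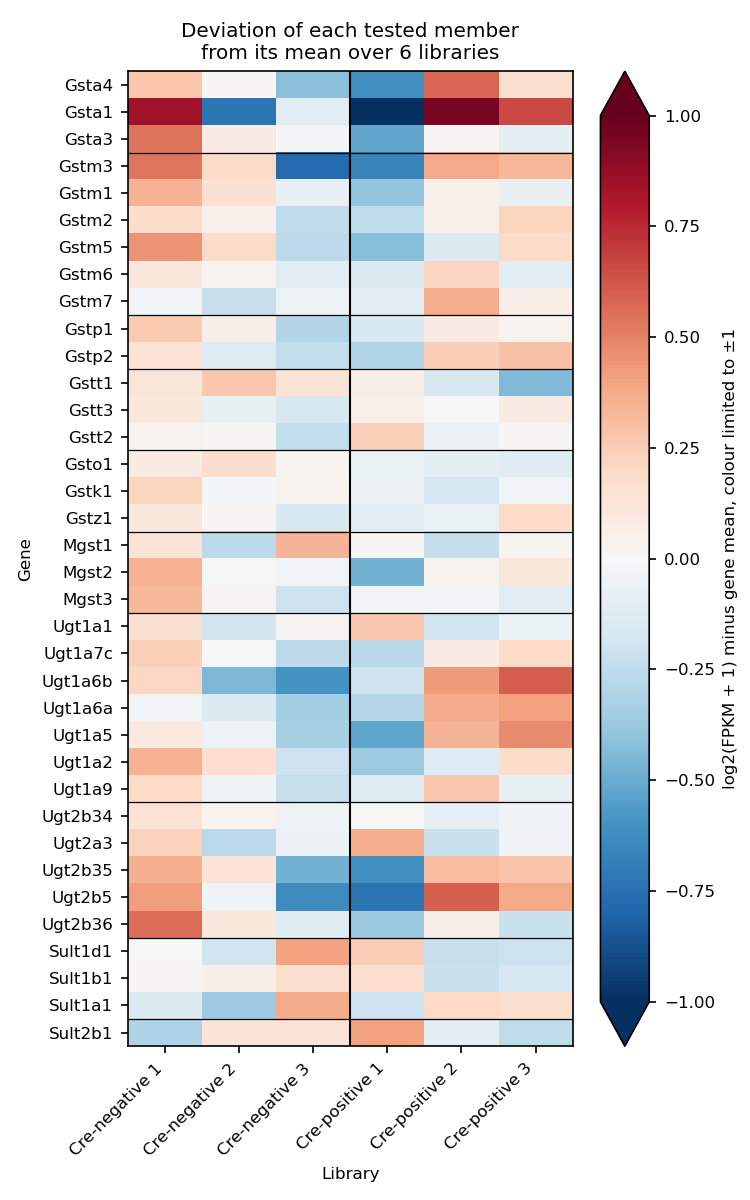
Deviation of each tested gene in each library from its mean over the 6 libraries, on the log2(FPKM + 1) scale, with colours limited to 1 in either direction and lines between classes and groups. Cre-negative 3 and Cre-positive 1 are both blue for most mu, pi and Ugt1a genes and both red for Sult1d1 and Sult1b1.

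Promoter sequences of 54 of the 62 genes, from 250 bases before to 50 after the start (RefSeq, GRCm38.p6), were searched on both strands for 3 motifs. The core of the antioxidant response element, TGACNNNGC, to which NRF2 binds, occurred in 4 of 33 promoters of tested genes (Gsta3, Gstm5, Gstm7 and Mgst1) and in 0 of 21 others, beside 14.0% of 27025 promoters. The CDX letters TTTATNG occurred in 2 of 33 (Gstm6 and Ugt2a3) and 4 of 21, beside 12.5% of all. The HNF1 site, whose 10 letters with 1 free base are those in capitals below, is a motif bound by liver and gut epithelial factors. It occurred in 3 of 33 (Sult1d1, Ugt1a1 and Ugt1a9) and 5 of 21 (Sult2a3, Sult2a4, Sult2a5, Sult2a6 and Ugt1a10), beside 0.470% of all. The Sult2a windows share most of their letters, as do those of Ugt1a9 and Ugt1a10. These promoters are therefore not independent, and the counts cannot be read against the share of all promoters. Of its 8 matches 4 are shown, in capitals with 12 flanking bases, because they stand before genes of very different level. Sult1d1 had a mean of 131 FPKM, Ugt1a1 of 86.4 and Ugt1a9 of 1.03, while Sult2a3 was listed at 0:
Sult1d1: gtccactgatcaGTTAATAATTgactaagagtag
Ugt1a1: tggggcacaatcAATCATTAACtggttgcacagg
Ugt1a9: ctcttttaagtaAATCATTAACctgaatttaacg
Sult2a3: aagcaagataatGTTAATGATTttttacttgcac
The windows lie at chr5:87569064-87569097, chr1:88211902-88211935, chr1:88070672-88070705 and chr7:14123078-14123111, each written in the direction of its gene. A match describes letters only.

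Genes around these enzymes were followed from lists of their regulators, cofactor supply and export, and none passed the adjusted threshold. Among 18 transcription factors, 11 log2 fold changes were above 0 with a median of 0.04. Hnf4a, the nuclear receptor of gut and liver epithelium, was at 215, 231 and 255 FPKM against 202, 227 and 256 FPKM, and Vdr, the vitamin D receptor, at 93.2, 85.2 and 94.4 FPKM against 104, 94.1 and 97.8 FPKM. In a list around glutathione, which holds genes that use or break it down beside those that supply it, 17 of 20 were below 0 with a median of -0.15. Anpep, the aminopeptidase that acts in glutathione breakdown at the cell surface, was at 1397, 1529.9 and 2067 FPKM against 2028, 1395 and 1495 FPKM. Gpx2, the gastrointestinal glutathione peroxidase, was at 374, 434 and 256 FPKM against 191, 369.9 and 446 FPKM. Gpx2 was lowest, and Anpep highest, in Cre-negative 3 and Cre-positive 1.

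In a list of 8 genes around UDP-glucuronate and other UDP-sugars, not all of which supply UDP-glucuronate, 6 were below 0 with a median of -0.09. Ugdh, which makes UDP-glucuronate, was at 189, 203 and 141 FPKM against 116, 174 and 167 FPKM, and the transporter gene Slc35a3 at 55.6, 55.2 and 54.2 FPKM against 50.8, 49.4 and 56.3 FPKM. The 11 tested genes of PAPS and sulfate handling had a median of -0.03, with 7 below 0. Bpnt1, which removes the spent sulfate donor, was at 172, 172 and 139.5 FPKM against 154, 165 and 186 FPKM, and the anion exchanger Slc26a3 at 83.5, 66.7 and 66.3 FPKM against 73.5, 70.3 and 88.7 FPKM. The 10 export transporters were split 5 to 5. Slc51a, a subunit of the basolateral organic solute transporter, was at 120.5, 104 and 124 FPKM against 103, 111 and 136 FPKM. Abcc2, the apical exporter of glutathione and glucuronide conjugates, was at 75.1, 75.5 and 76.3 FPKM against 93.3, 89.1 and 80.7 FPKM. All Cre-positive values of Abcc2 lay above all Cre-negative ones, with a log2 fold change of 0.21 (SE 0.09, adjusted p = 0.998 by limma), beside the 5.77% of all genes with that order.

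Of 22 NRF2 target genes outside the 3 families, 18 were below 0 with a median of -0.10, and 2, Osgin1 and Me1, had an unadjusted p under 0.05, both lower, where 1.07% of all genes did. The most abundant were Fth1, the ferritin heavy chain, at 1225, 1249 and 1086 FPKM against 1155, 1149 and 1085 FPKM, and Txn1, thioredoxin, at 667, 610.5 and 544 FPKM against 549, 548 and 585 FPKM. For both, the groups overlapped. These medians stand beside 0.03 for all genes tested, of which 41.6% were below 0. The lists were not fitted under other scalings, and rescaling to an equal sum moved the median of all genes to 0.13. Some genes stand in 2 lists, such as Gclc, Gclm and Anpep, so the lists are not independent. Among the cell type lists, the 7 B cell markers were all above 0 with a median of 1.68, and 6 of them had an unadjusted p under 0.05, where 2.54% of all genes did. Their summed FPKM was 15.4, 11.6 and 6.59 in the Cre-negative and 67.4, 80.4 and 10.4 in the Cre-positive libraries. Only Cre-positive 1 and 2 stood above the Cre-negative libraries, and Cre-positive 3 lay within their range. All 8 Paneth cell markers were below 0 with a median of -0.30, with sums of 24755 to 40615 against 20404 to 31287 FPKM. At an unadjusted p under 0.05, 2 of them (Pla2g2a and Mptx2) were lower, where 1.07% of all genes were. Of 13 tested enterocyte markers, 12 were below 0 with a median of -0.16. Other lists were as one-sided. All tested markers of smooth muscle (6, median -0.24), adipocytes (4, -0.43) and neutrophils (2, -0.48) were below 0. Those of macrophages (5, 0.06) and mast cells (3, 0.13) were all above 0.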

How the data were processed

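RNA of the terminal ileum of 6 mice, whole tissue, was sequenced from directional NEBNext Ultra II libraries on a NextSeq 500, per the labels' protocols. STAR, Cufflinks, Cuffnorm, SAMtools, bedtools, Trimmomatic and FastQC are named with GRCm38 and mm10, without versions, per the submitters' processing notes. The authors deposited 1 table of FPKM values with 23402 gene rows and 1 column per library. The sources used here do not give the scaling between libraries, the sharing of ambiguous fragments or the use of strand. FPKM values are not counts, and the depths were estimated from steps of the lowest values, to which 10.3% to 11.8% of low genes kept, beside a median of about 2.2% to 2.4% at other scales. No columns were identical, and libraries correlated between 0.980 and 0.985 (Spearman, across genes, which are not independent).

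The filter was a mean of 1 FPKM or more over the 6 libraries, which left 12695 genes. Values were compared as log2(FPKM + 1), which understates the change of low genes, by limma (moderated, two-sided, with an intensity trend), adjusted over those genes by Benjamini-Hochberg at a threshold of 0.05. Tools were limma 3.58.1 in R 4.3.3, and pandas 2.3.3, Biopython 1.88, matplotlib 3.10.9 and numpy 2.4.6 in Python 3.11.15. Tested on simulated data for this comparison (12695 genes, 200 changed, 5 simulations), the fit recovered 36.8% of genes changed 1.5-fold, 73.7% changed 2-fold and 96.3% changed 4-fold, with 32 of 723 calls false. Changes were simulated only in genes with a mean log2(FPKM + 1) above 2, and noise was drawn separately for each gene. The recovery therefore does not cover lower genes or deviations that genes of a library share.

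The genes and lists were chosen with earlier results of these data known. Named are the 3 most abundant tested genes of each class, the 6 with the smallest unadjusted p in each direction, Il17ra and the 2 most abundant genes of each pathway list; others named were chosen after their values were seen. Coding identity and 50-base windows were computed from GENCODE M21 transcripts in place of the planned protein alignment, since no protein table was used. Same-numbered replicates did not deviate together (correlations -0.13, 0.03 and -0.11), so numbers were not taken as pairs. Alternatives were pseudocounts of 0.1 and 5, no filter or 5 FPKM, 3 other scalings, limma without trend, robust or with array weights, a replicate block and each library left out.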

Additional observations from a re-analysis of the deposited data

How the results depend on the processing

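The number of the 62 genes past the adjusted threshold was 0 under all 17 alternatives, and the smallest adjusted p of any of them was 0.0895, with array weights. The count over all genes, 0 as reported, was 24 with array weights, 1 with the replicate block, 2 with a pseudocount of 0.1, 2 with a pseudocount of 5, 2 when libraries were rescaled to an equal sum, and 0 to 46 with one library left out, 46 without Cre-positive 3. The replicate block left the count of members at 0. At an unadjusted p under 0.05, 0 to 4 members were lower and 0 to 6 higher across the alternatives, where 1 and 0 are reported. With array weights 6 of 36 members were higher and 4 lower, where 1741 and 976 of 12695 genes were. Without Cre-negative 3, 4 of 36 members were lower and 0 higher, where 231 and 182 of 12724 genes were. Without Cre-positive 1, 4 of 36 were higher and 2 lower, where 449 and 374 of 12679 genes were. After median-of-ratios scaling 3 of 36 were lower, where 207 of 12694 genes were. Quantile normalization also gave 3, where 219 of 12695 genes were lower. The median log2 fold change of tested members, -0.0035, stayed between -0.107 and 0.102. The per-library medians of these members had a pooled SD of 0.148, which is not the error of a difference between groups. The 14 members followed were the 6 with the smallest unadjusted p in each direction, with Gsta1 and Gstm3. Since most were picked by p in these same data, their signs do not stand for those of the other members. Of the 14, 11 kept their sign under every alternative, but leaving out 1 library moved the log2 fold change of 12 by over 1.5 times (all but Gsto1 and Ugt1a6b). It ran from -0.48 to -0.22 for Gstt1 (nearest 0 without Cre-positive 3), and without Cre-negative 1 it was -0.23 for Gsta3, -0.17 for Ugt2b36 and -0.097 for Gstk1. Without Cre-positive 1 it was -0.15 for Gstm1, and ranges were 0.083 to 0.32 for Gstm7 (lowest without Cre-positive 2), 0.050 to 0.35 for Gstp2 and 0.21 to 0.56 for Ugt1a6a (both lowest without Cre-positive 3 and highest without Cre-positive 1), and 0.042 to 0.19 for Gstt2 and 0.030 to 0.16 for Gstt3 (both lowest without Cre-negative 3). Gstt2 turned to -0.0030 with array weights. Gsta1 turned to 1.12 with array weights, 0.064 with a pseudocount of 5 and 0.096 on libraries of equal sum, and ran from -0.49 to 0.80 with one library left out. Gstm3 turned to -0.0064 after median-of-ratios scaling and ran from -0.35 to 0.37 with one library left out. The cause was not tested. Depth limits the low genes: those near 1 FPKM rest on few fragments, and a gene listed at 0 may be present below detection.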
